A study of Mus musculus with 8 samples.

Results

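The genes described here act in folding proteins in the endoplasmic reticulum and in the unfolded protein response. They were chosen by symbol from a list of 39 chaperones, disulfide isomerases, stress sensors, stress transcription factors, degradation factors and translocation subunits. Of these, 38 were found among the 24346 gene symbols of the deposited tables, and 36 had a mean FPKM of at least 1 and were tested. FPKM counts sequenced fragments per kilobase of transcript, scaled for the depth of the library, so that levels of different genes can be set side by side per length. Selenos was not found under that symbol. RefSeq gives Vimp as an older name of the same gene, and its values are given separately.

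The study sequenced RNA of stromal cells sorted from the whole colon of 8 mice aged 12 weeks, taking live cells positive for podoplanin and negative for CD45, CD31 and EpCAM. The WT group holds 4 mice with Il10ra flox/flox alleles and no Cre. The cKO group holds 4 mice with Pdgfra cre and the same floxed alleles, so that Cre acts where the Pdgfra promoter has been active, which includes most intestinal fibroblasts, while sex, strain and the floxed part of Il10ra were not given in the sources used here. The series' title names the receptor for interleukin-10 in fibroblasts and type I interferon signalling as the subject, and the comparison below asks whether the folding and stress genes differed between the genotypes.

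Cells such as fibroblasts secrete large amounts of collagen and other matrix proteins, which enter the endoplasmic reticulum through the Sec61 channel, are folded by chaperones and receive their disulfide bonds there. When unfolded protein builds up, the sensors IRE1, PERK and ATF6 respond. IRE1 splices Xbp1 messenger RNA, PERK slows translation and favours translation of ATF4, and ATF6 is cut to an active transcription factor, and together they raise chaperone, degradation and amino acid genes. FPKM per gene measures neither the splicing of Xbp1 nor the cleavage of ATF6 nor the phosphorylation of PERK.

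Across libraries, 15815 to 16323 genes had an FPKM above 0. Depth relative to WT replicate 1, read from the whole-number steps of low values, ran from 0.868 in WT replicate 2 to 1.10 in cKO replicate 3. The targeted gene Il10ra had an FPKM between 0.403 and 0.842 in the WT libraries (149 fragments in all) and between 0.273 and 0.636 in the cKO libraries (126 fragments). The groups overlapped (two-sided exact permutation p = 0.4, n = 4 each), and a value over the whole gene does not check the genotype. Fibroblast markers, led by Dcn, Col3a1 and Col1a1, summed to 19832 to 20816 FPKM in WT and 18038 to 22108 in cKO. The summed FPKM of 12 epithelial markers, led by Guca2a, Car1 and Krt8, was 57.5 to 124 in WT and 968, 507, 133 and 48.1 in cKO replicates 1 to 4, and all 12 had a higher mean in cKO. Goblet cell markers (Clca1, Agr2, Zg16) summed to 11.8 to 29.8 in WT and 12.1 to 479 in cKO, highest in cKO replicate 1. Sums in WT and cKO were 75.2 to 105 and 83.1 to 172 for myeloid (Lyz2, Laptm5, Tyrobp), 96.6 to 106 and 87.3 to 133 for smooth muscle (Smtn, Acta2, Tagln), 3.19 to 4.83 and 4.21 to 11.9 for endothelial, 5.76 to 8.35 and 3.55 to 8.77 for T cell, 0.659 to 1.62 and 1.51 to 2.28 for glial and 0.642 to 2.27 and 0.491 to 6.19 for mesothelial markers. A higher mean in cKO was also seen in 8 of 8 goblet, 10 of 10 endothelial, 4 of 4 mesothelial and 4 of 5 glial markers. The same held for 9 of 11 myeloid, 6 of 8 smooth muscle, 1 of 5 T cell and 2 of 8 fibroblast markers. No marker in the files was at 0 in all libraries.

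No member passed the test between cKO and WT over all 11506 genes tested (limma, Benjamini-Hochberg adjusted p of 0.897 to 1.00 for the 36 members). By the same test 0.00869% of all genes were called, which is 1 gene and no member. The members' differences were small. The median log2 difference was -0.05, against -0.01 over all genes tested, and the single differences ran from -0.20 for Asns to 0.12 for Ern1. Of the 36 members, 27 (75%) had a lower mean in cKO, where 52.6% of all genes did. At an unadjusted limma p under 0.05, 3 members had a lower mean in cKO (8.33%, against 3.03% of all genes), namely Hspa5, Herpud1 and Xbp1, and 0 were higher (against 2.37% of all genes). The share depends on scaling, for the members and for all genes. Rescaling every library to the same FPKM sum left 22 of 36 members lower (61.1%), where 39.6% of all genes were lower. Quantile normalization left 21 (58.3%), where 54.5% of all genes were lower. The members' median was -0.01 with rescaling, against 0.03 over all genes, and -0.02 with quantile normalization, against -0.01. With 1 library left out, the members' median lay between -0.08 (without WT replicate 3) and -0.03 (without cKO replicate 4).

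**Figure D1:**
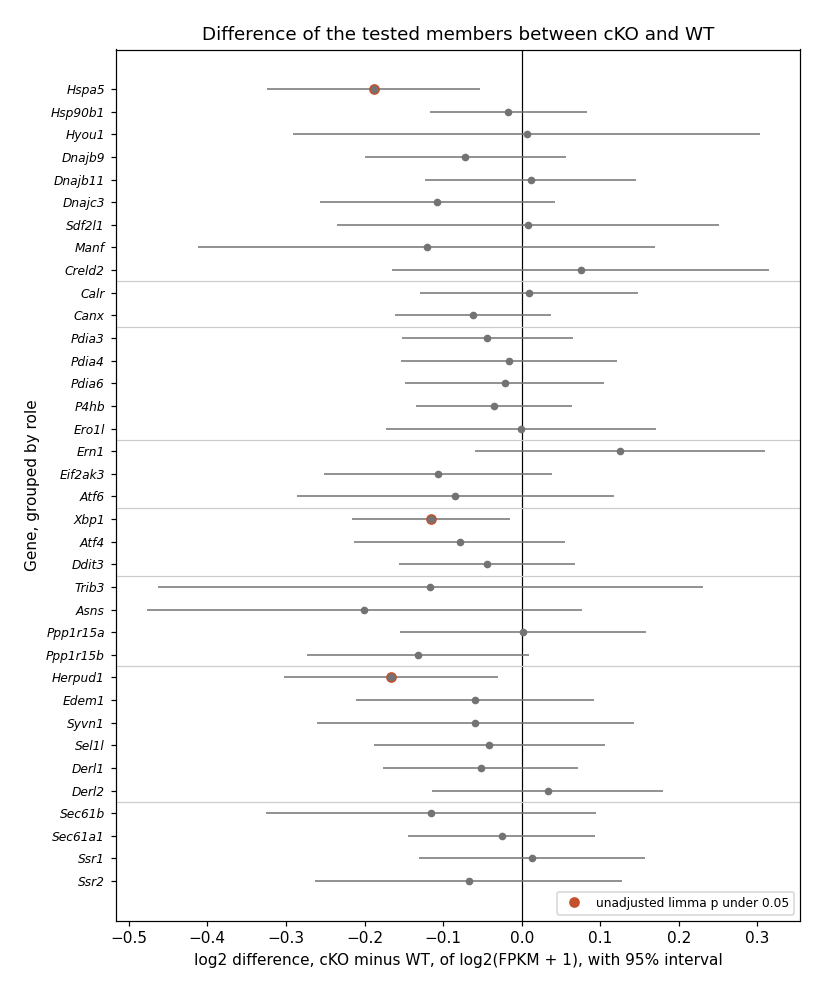
Log2 difference between cKO and WT (horizontal axis, of log2(FPKM + 1)) for the 36 tested members, grouped by role, with the 95% interval of the limma fit as bars. Most points lie left of 0, the intervals of 33 members include 0, and the 3 coloured points are Hspa5, Xbp1 and Herpud1, none of which passed after adjustment.

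The response is known to act on its target genes, many of which are members, through short promoter elements. The best known is the ER stress response element (ERSE), a CCAAT and a CCACG box, bound by NF-Y with ATF6 or XBP1. Promoters in RefSeq (build GRCm38.p6, 250 bases before to 50 bases after the start) were found for 32 of the 39 members. None was used for Atf6, Derl1, Hyou1, Manf, Ppp1r15b, Sec61a1 and Ssr2. The exact letters CCAAT, then 9 bases of any kind, then CCACG, searched on both strands, were in 37 of 27025 genes (0.137%) and in 9 of the 32 members (28.1%). These 9 are shown because they include Hspa5 and the other members with the classical element, each a match with 5 bases on either side, read 5′ to 3′ along the strand of the match, with the element in capitals.
Hspa5 (chr2:34772020-34772048, plus strand): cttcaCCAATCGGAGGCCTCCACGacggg
Pdia6 (chr12:17266486-17266514, plus strand): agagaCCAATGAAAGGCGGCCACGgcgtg
Dnajc3 (chr14:118937822-118937850, plus strand): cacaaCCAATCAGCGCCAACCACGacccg
Syvn1 (chr19:6046527-6046555, plus strand): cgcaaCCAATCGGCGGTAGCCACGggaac
Canx (chr11:50325795-50325823, minus strand): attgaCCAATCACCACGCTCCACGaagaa
Calr (chr8:84847070-84847098, plus strand): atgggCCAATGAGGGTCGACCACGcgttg
Creld2 (chr15:88819515-88819543, minus strand): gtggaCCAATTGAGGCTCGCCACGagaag
Derl3 (chr10:75893237-75893265, minus strand): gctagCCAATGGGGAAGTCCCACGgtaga
The ninth gene, Hsp90b1, held 2 matches that face opposite ways. They lie in a stretch of 134 bases that ends 83 bases before its start, printed here along the gene's strand, in which the second match appears as its reverse complement.
Hsp90b1 (chr10:86705528-86705661, minus strand): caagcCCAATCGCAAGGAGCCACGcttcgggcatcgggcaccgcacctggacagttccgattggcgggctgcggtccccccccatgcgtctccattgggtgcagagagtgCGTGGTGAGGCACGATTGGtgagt
A compact form of the element, ERSE-II (ATTGG, any base, then CCACG, both strands), was in 12 of 27025 genes (0.0444%) and in 2 members.
Herpud1 (chr8:94386372-94386392, plus strand): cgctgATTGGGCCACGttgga
Dnajb11 (chr16:22857847-22857867, plus strand): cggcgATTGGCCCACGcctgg

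The ATF4 branch acts through another element, the CARE (TGATGNAA, both strands), which is shorter and more common. It was in 1219 of 27025 genes (4.51%) and in 4 of the 32 members (12.5%), which are genes of the amino acid and stress branch and Herpud1.
Asns (chr6:7693220-7693237, minus strand): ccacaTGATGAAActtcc
Trib3 (chr2:152344034-152344051, plus strand): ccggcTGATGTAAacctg
Chac1 (chr2:119351044-119351061, minus strand): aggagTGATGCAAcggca
Herpud1 (chr8:94386312-94386329, minus strand): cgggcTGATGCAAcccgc
A further element of XBP1, TGACGTGG, was in 193 genes (0.714%) and in 0 of the 32 members, and the cyclic AMP element TGACGTCA was in 549 genes (2.03%) and in Ppp1r15a. Within the members, no match of an element overlapped a match of another. A match is a run of letters and not a measured binding site. Of the 9 members with an ERSE, 8 were tested, and 6 had a lower and 2 a higher mean in cKO (median log2 difference -0.04, from -0.19 for Hspa5 to 0.07 for Creld2). The 3 tested members with a CARE all had a lower mean in cKO (median -0.17), though the sign of Trib3 turned without cKO replicate 4. That median is the value of Herpud1, which also held an ERSE-II. Left out by the filter were Derl3, with an ERSE, and Chac1, with a CARE. Both had a higher mean FPKM in cKO (Derl3 0.769 against 0.448 in WT, Chac1 0.535 against 0.289 in WT). A lower mean was seen in 75% of the 36 tested members and in 52.6% of all genes. Of 23 tested amino acid response genes outside the member list, 9 had a lower mean (median 0.03).

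The members ranged from transcripts near the top of the library to a few fragments. Of the 38 members, 16 had a mean FPKM of at least 100 and 6 of at least 300. Hspa5, the abundant Hsp70-type chaperone BiP, had a mean FPKM of 1653 over all libraries and ranked 21 among the 24346 genes. Next came Ppp1r15a at 647, Pdia3 at 514, P4hb at 445, Hsp90b1 at 386 and Pdia6 at 314. The sensors were far lower, with Eif2ak3 (PERK) at 14.04, Atf6 at 7.27 and Ern1 (IRE1) at 3.68. Summed over members, the FPKM made up 1.30% to 1.36% of the library's sum in WT and 1.28% to 1.31% in cKO, with Hspa5 alone at 26.0% to 27.7% of the members' sum in WT and 23.4% to 26.1% in cKO.

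**Figure D2:**
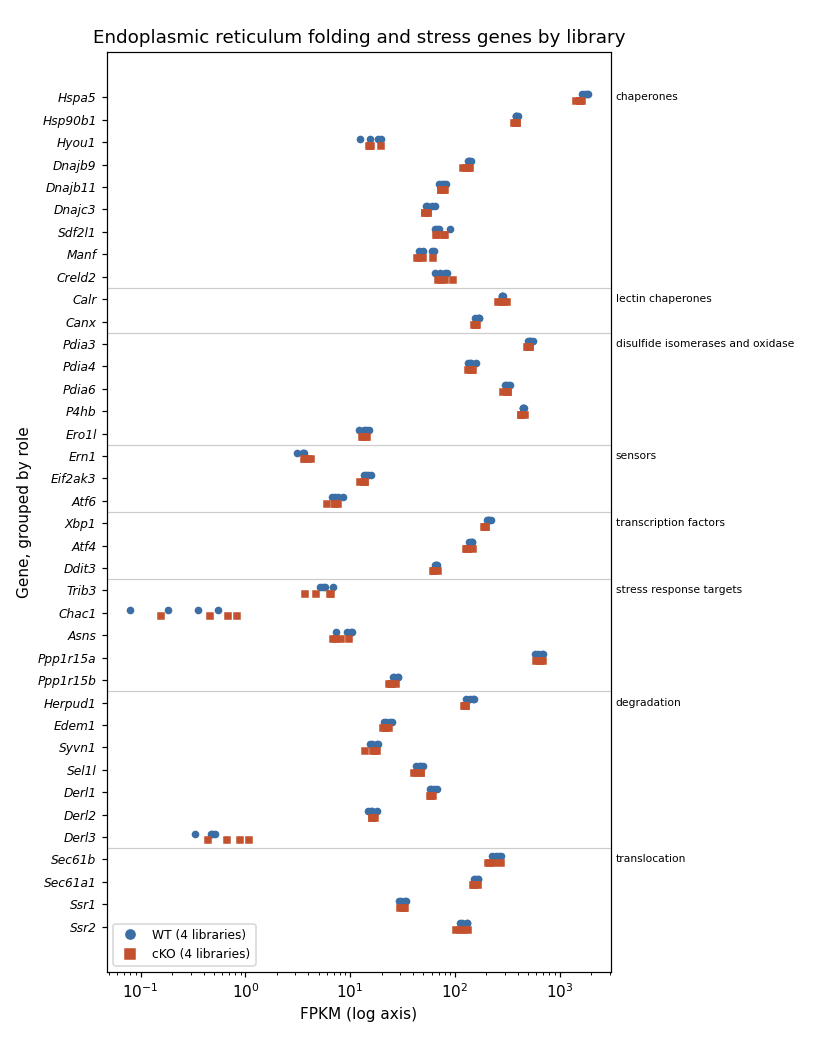
FPKM of the 38 members in each of the 8 libraries (horizontal log axis; circles WT, squares cKO), grouped by role. The 2 groups, drawn one under the other, cover overlapping ranges for all members but Hspa5 and Xbp1, from Hspa5 near 1653 down to Chac1 and Derl3 under 1 on average.

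Among the chaperones, Hspa5 was the member with the smallest p. Its FPKM was 1806, 1849.6, 1645 and 1743 in WT (here and below in the order of replicates 1 to 4) and 1551, 1429.7, 1638 and 1564 in cKO. Every cKO library lay below every WT library, though cKO replicate 3 and WT replicate 3 differed by little. The mean was 1761 ± 89.0 in WT and 1546 ± 86.3 in cKO (SD, n = 4 each), a log2 difference of -0.19 (SE 0.06, 95% interval -0.32 to -0.05, limma unadjusted p = 0.0114, adjusted p = 0.897). On the FPKM + 1 scale this is 12.2% lower, with an interval from 20.1% to 3.61% lower. Such a separation without overlap, in the lower direction, was seen for 2 of 36 members (5.56%) and for 1.90% of all genes, and in the higher direction for 0 members and 1.36% of all genes. Hspa5 lies on chromosome 2 (34771970 to 34777547, mm10, GENCODE vM21, plus strand), where this gene start lies before the printed element and the RefSeq start after it. Without cKO replicate 1 and cKO replicate 2, the libraries with the most epithelial transcript, its difference was -0.14 (limma unadjusted p = 0.0733, adjusted p = 0.732). Of these, cKO replicate 2 held the lowest Hspa5 value. Without cKO replicate 1 alone the difference was -0.19 (limma unadjusted p = 0.0157, adjusted p = 0.643). With an epithelial covariate in the fit it was -0.17 (limma unadjusted p = 0.0323, adjusted p = 0.700).

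Hsp90b1, the Hsp90-type chaperone GRP94, whose promoter holds the pair of elements printed above, differed by less than its error. Its FPKM was 402, 381, 384 and 387 in WT and 392, 393, 385 and 366 in cKO, so that cKO replicate 4 lay below and WT replicate 1 above the range of the other group, and the remaining libraries overlapped. The difference was -0.02 (95% interval -0.12 to 0.08, adjusted p = 0.985), which allows a change from 7.76% lower to 5.90% higher. Its sign turned under quantile normalization, under rescaling to a fixed sum and without cKO replicate 4. Hspa5 had the larger SE (0.0605, against 0.0445 for Hsp90b1), and the point estimates of the genes differed. The difference between the genes was not tested.

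The less abundant stress-induced folding genes varied among libraries of the same genotype. Creld2, a secreted protein induced by ER stress, had an FPKM of 72.2, 84.4, 65.1 and 80.7 in WT and 95.1, 81.0, 69.7 and 73.7 in cKO. Manf, a secreted ER stress protein that binds BiP, had 49.2, 60.1, 45.2 and 63.0 in WT and 61.6, 45.6, 49.3 and 43.3 in cKO. In both genes WT replicates 2 and 4 were the high WT libraries, WT replicate 3 the lowest of them, and replicate 1 the highest of cKO. Hyou1, a large Hsp70 relative that releases nucleotide from BiP, followed with 15.6, 18.5, 12.5 and 19.5 in WT and 19.6, 15.5, 15.8 and 15.1 in cKO. Sdf2l1, a partner of the BiP cofactor Dnajb11, was highest in WT replicate 4 at 89.9 and between 64.5 and 80.2 elsewhere. None of the 4 differed in limma (adjusted p of 0.952 to 0.996), and their 95% intervals lay between -0.41 (Manf) and 0.31 (Creld2). In cKO replicate 1, where Creld2, Manf and Hyou1 were the highest of the cKO libraries, the epithelial markers summed to 968 FPKM, and the part of those cells was not tested. Without that library the cKO means were 74.8 ± 5.72, 46.1 ± 3.07 and 15.4 ± 0.338 (SD, n = 3), and the differences of Creld2 and Hyou1 turned to a lower mean in cKO.

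The J-domain cochaperones of BiP did not pass. Dnajc3, which also restrains PERK, had 54.5, 60.4, 52.5 and 64.0 in WT and 55.0, 51.9, 54.9 and 52.3 in cKO (difference -0.11, adjusted p = 0.911). Dnajb9, a cochaperone that represses IRE1, was at 137 ± 4.94 in WT and 130.4 ± 8.70 in cKO. Dnajb11 was at 76.3 ± 5.01 and 76.8 ± 3.64. The groups overlapped in all 3 genes.

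The lectin chaperones bind sugar chains of new glycoproteins, and neither passed. Calr (calreticulin) had an FPKM of 281, 281, 285 and 281 in WT and 311, 297, 275 and 256 in cKO. The WT libraries were tightly placed, with a coefficient of variation of 0.671%, the smallest of the 36 members, against 8.62% in cKO, while the means were 282 ± 1.89 and 285 ± 24.5. A difference in spread was not tested. Canx (calnexin) was at 165 ± 5.70 in WT and 158 ± 3.51 in cKO (difference -0.06, 95% interval -0.16 to 0.04).

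All 5 members that form disulfide bonds had a slightly lower mean in cKO and none passed (adjusted p of 0.953 to 1.00). Pdia3, which works with the lectin chaperones, was at 522 ± 21.3 in WT and 506 ± 16.7 in cKO. P4hb, an isomerase and also a subunit of the collagen prolyl hydroxylase, was at 450.2 ± 5.64 and 439 ± 16.6, with an interval of the log2 difference from -0.13 to 0.06. Pdia6 was at 316 ± 15.8 and 312 ± 17.1 and Pdia4 at 144 ± 10.7 and 142 ± 6.66. Ero1l, the oxidase that recharges P4hb, was at 13.7 ± 1.32 and 13.7 ± 0.766. The intervals of these 5 genes lay within -0.17 and 0.17, and the sign of 4 of them (Pdia3, Pdia4, Pdia6 and P4hb) turned under quantile normalization.

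**Figure D3:**
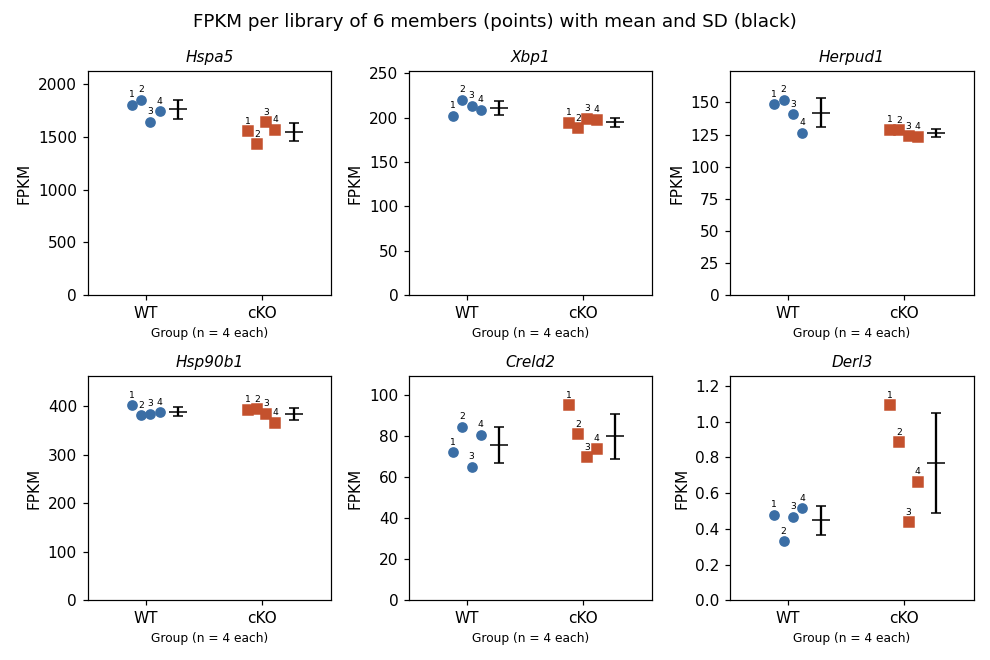
FPKM per library (points, numbered by replicate) of 6 members in WT and cKO, with the mean and SD of the 4 libraries in black and axes from 0. Hspa5 and Xbp1 do not overlap between the groups, Herpud1 does through WT replicate 4, Hsp90b1 overlaps in part, Creld2 is led by cKO replicate 1, and Derl3 is low throughout.

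The 3 sensors were low and did not pass. Ern1 had 3.57, 3.58, 3.13 and 3.62 in WT and 3.95, 4.26, 3.69 and 3.61 in cKO, which stood for 944 fragments in the 4 WT libraries and 1129 in the 4 cKO libraries. The groups overlapped through cKO replicate 4 alone, and the difference of 0.12 (SE 0.08, adjusted p = 0.920) was the highest of the 36 members. Eif2ak3 was at 14.6 ± 0.909 in WT and 13.5 ± 0.694 in cKO (difference -0.11, adjusted p = 0.903), and Atf6 at 7.52 ± 0.767 and 7.03 ± 0.666.

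Of the transcription factors, Xbp1, the target of IRE1, was the second member without overlap. Its FPKM was 202, 219.9, 213 and 209 in WT and 194, 188, 199 and 198 in cKO. The highest cKO library and the lowest WT library were only a few units apart. The log2 difference was -0.12 (SE 0.04, 95% interval -0.22 to -0.02, limma unadjusted p = 0.0281, adjusted p = 0.897), or 7.71% lower. Without WT replicate 2, WT replicate 3 or cKO replicate 2 it was -0.10, -0.11 and -0.10, with unadjusted limma p of 0.0859, 0.0640 and 0.0722. Xbp1 lies on chromosome 11 (5520659 to 5525893, plus strand). Spliced and unspliced forms are not separated in these values.

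Atf4, the transcription factor favoured when PERK slows translation, had 145, 143, 146 and 135 in WT and 150.3, 133, 130.4 and 126 in cKO. cKO replicate 1 lay above all WT libraries and the other 3 below them. The difference was -0.08 (SE 0.06, adjusted p = 0.929) with all libraries and -0.13 (unadjusted p = 0.0200, adjusted p = 0.645) without cKO replicate 1. Without cKO replicate 4 it was -0.05 (limma unadjusted p = 0.455, adjusted p = 0.968). Ddit3, the factor CHOP that is tied to cell death in long stress, had 66.6, 68.0, 65.9 and 64.4 in WT and 69.2, 63.1, 63.0 and 61.8 in cKO. It showed the same placing of cKO replicate 1 at the top, with a difference of -0.04 (95% interval -0.16 to 0.07, adjusted p = 0.955), and -0.08 without that library (unadjusted p = 0.107, adjusted p = 0.801). Without cKO replicate 4 the difference of Ddit3 was -0.03 (limma unadjusted p = 0.646, adjusted p = 0.982).

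The downstream genes of the PERK and ATF4 branch did not pass either. Asns, asparagine synthetase, had 9.41, 10.5, 7.33 and 10.2 in WT and 9.66, 6.88, 8.14 and 7.31 in cKO, with 1157 and 1066 fragments in all. Its difference of -0.20 (SE 0.12, adjusted p = 0.906) was the lowest of the members and also among the least precise. Trib3, a pseudokinase that dampens ATF4, had 5.14, 6.90, 5.46 and 5.73 in WT and 4.69, 6.56, 6.49 and 3.74 in cKO, or 769 fragments in either group (difference -0.12, 95% interval -0.46 to 0.23). Ppp1r15b and Ppp1r15a encode the subunits that reverse the translation block, the former constitutive and the latter stress-induced. Ppp1r15b had 28.9, 28.6, 26.5 and 25.9 in WT and 27.2, 23.3, 24.6 and 24.8 in cKO, with a difference of -0.13 (SE 0.06, unadjusted p = 0.0630, adjusted p = 0.897). Ppp1r15a was abundant, with 646 ± 51.7 in WT and 647 ± 41.2 in cKO (95% interval of the log2 difference -0.15 to 0.16). Immediate-early and heat shock genes, which are known to rise when tissue is dissociated, summed to 17207 to 17907 FPKM in WT and 17268 to 18618 in cKO over 17 genes led by Fos, Egr1 and Dusp1. Whether dissociation set the level of Ppp1r15a was not tested.

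Chac1, a glutathione-degrading enzyme that ATF4 induces, was below the filter. It stood at 0.0794, 0.183, 0.350 and 0.542 in WT and 0.830, 0.463, 0.689 and 0.157 in cKO. On the scale of single fragments these were 2, 4, 9 and 14 fragments in WT and 22, 12, 19 and 4 in cKO (smallest whole-number solution, each value within 0.01 of a whole number). The groups overlapped (two-sided exact permutation p = 0.257, n = 4 each, adjusted p = 0.257 over the 2 members below the filter).

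Herpud1, a membrane protein that gathers the degradation machinery, was the third member at an unadjusted p under 0.05. Its FPKM was 149, 152, 141 and 126 in WT and 129, 128, 124 and 123 in cKO. WT replicate 4 lay among the cKO libraries, and the other WT libraries lay above all of them. The mean was 142 ± 11.3 in WT and 126 ± 2.95 in cKO, a log2 difference of -0.17 (SE 0.06, 95% interval -0.30 to -0.03, limma unadjusted p = 0.0216, adjusted p = 0.897). The difference was -0.22 without WT replicate 4, and -0.14 and -0.13 without WT replicate 1 or 2, where the unadjusted limma p was 0.0628 and 0.0678. Herpud1 lies on chromosome 8 (94386438 to 94395377, plus strand), and is the only one of the 32 members with a promoter sequence that held both an ERSE-II and a CARE.

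None of the other 5 tested degradation genes reached an unadjusted p under 0.05 in limma. Sel1l and Syvn1, the core of the ligase that marks misfolded proteins, were at 46.1 ± 2.98 and 17.1 ± 1.43 in WT and at 44.8 ± 2.98 and 16.5 ± 1.86 in cKO. Edem1, a lectin that trims misfolded glycoproteins, was at 22.9 ± 1.74 and 21.9 ± 1.19. The channel-like derlins Derl1 and Derl2 were at 61.8 ± 3.93 and 16.2 ± 1.37 in WT and at 59.5 ± 1.81 and 16.6 ± 0.417 in cKO. Vimp, the row of Selenos, was at 122 ± 7.85 and 122 ± 11.3. The adjusted p-values of these genes ran from 0.951 to 0.997 in limma.

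Derl3, the derlin known for its high level in plasma cells, was below the filter and higher by value in cKO. It had 0.479, 0.331, 0.469 and 0.514 in WT and 1.09, 0.884, 0.437 and 0.662 in cKO, or 10, 6, 10 and 11 fragments against 24, 19, 10 and 14. cKO replicate 3 lay among the WT libraries and the other 3 above all of them (two-sided exact permutation p = 0.114, n = 4 each, adjusted p = 0.229 over 2 members). In limma without a filter its difference was 0.28 (SE 0.11, unadjusted p = 0.0401, adjusted p = 0.914). Mzb1, a plasma cell gene, had 2.70, 0.888, 1.59 and 3.46 in WT and 8.50, 6.30, 1.55 and 4.57 in cKO, so that cKO replicate 3 was again the low one of its group. Plasma and B cell markers, led by Jchain, Cd79a and Sdc1, had a higher mean in cKO in 6 of 11 and summed to 51.5 to 90.4 in WT and 44.4 to 179 in cKO, highest in cKO replicate 1. Mzb1 had the highest difference of the tested genes in that list (0.90, limma adjusted p = 0.897). Cd79a, Ms4a1, Pou2af1, Prdm1 and Irf4 of the same list had a lower mean in cKO. Prdm1, for example, was at 1.44 ± 0.472 in WT and 1.25 ± 0.400 in cKO. The part of plasma and B cells in the value of Derl3 was not tested. In sorted pools, fewer cells of a type and less RNA per cell cannot be told apart.

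The translocation subunits did not pass. Sec61b, the small subunit of the channel, had 226, 275, 246 and 263 in WT and 277, 215, 234 and 208 in cKO. Its cKO replicate 1 was the highest of all libraries, and the difference was -0.12 with all libraries and -0.20 without that one (adjusted p = 0.929 and 0.666). Without WT replicate 4 it was -0.09 (limma adjusted p = 0.930). Ssr2, a subunit of the translocon-associated complex, also had its highest value in cKO replicate 1. Its FPKM was 112, 131, 118 and 132 in WT and 134, 113, 123 and 102 in cKO. Sec61a1, the pore subunit, was at 159 ± 7.76 and 157 ± 7.25, and Ssr1 at 31.8 ± 2.37 and 32.0 ± 1.51.

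**Figure D4:**
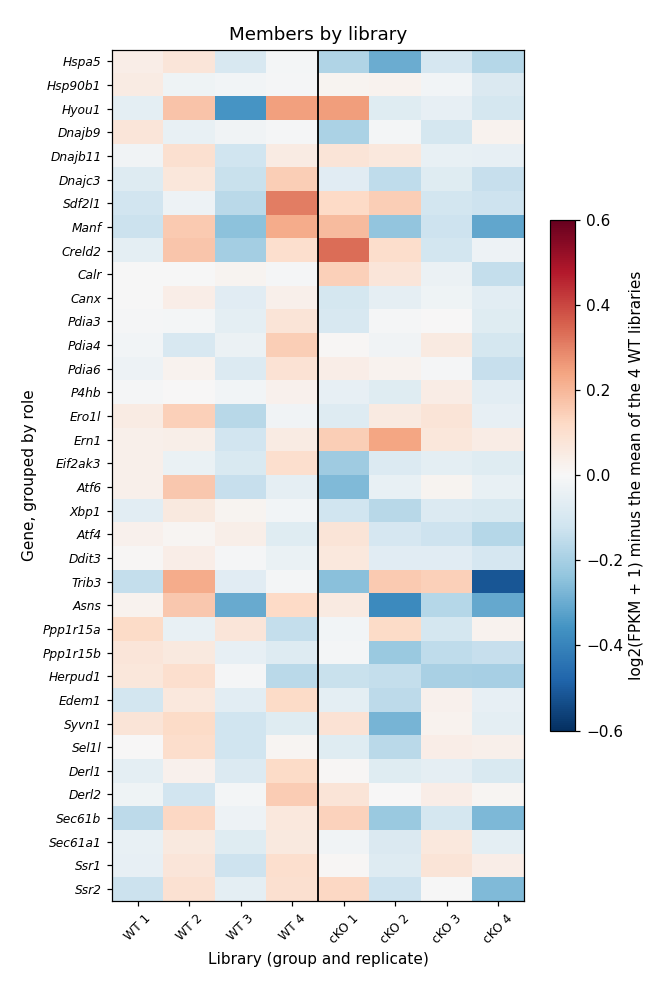
log2(FPKM + 1) of the 36 tested members in each library, minus the mean of the 4 WT libraries (blue lower, red higher), ordered by role. Rows such as Hyou1, Manf, Creld2, Sec61b and Ssr2 are red in WT replicates 2 and 4 and in cKO replicate 1, and Hspa5, Xbp1 and Herpud1 are blue in all 4 cKO libraries.

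Libraries of 1 group differed among themselves in many members at the same time. Of the 36 tested members, WT replicate 3 was the lowest WT library in 21, and WT replicates 2 and 4 were the highest in 14 and 16. In cKO, replicate 1 was the highest in 17 and replicate 3 in 13, and replicates 2 and 4 were the lowest in 12 and 16. The coefficient of variation of a member had a median of 7.08% in WT and 5.59% in cKO. These placings are of the deposited FPKM, whose sum was 484444 to 491789 in the WT libraries, 464037 in cKO replicate 4 and 477545 to 484782 in the other cKO libraries. The same placings were not counted over all genes, so they cannot be read as particular to the members. No batch is named in the labels.

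Correlations across the 8 libraries were computed for 6 pairs. For Hspa5 with Xbp1 no pooled value is given, because the groups did not overlap in either gene and each group holds 4 libraries. In the other 5 pairs no relation passed (Pearson exact permutation adjusted p of 0.567 to 0.850, Spearman of 0.779 to 0.935). Hspa5 and Hsp90b1 had r = 0.09 (exact permutation p = 0.850) and rho = -0.17 (exact permutation p = 0.703), and r = 0.61 without WT replicate 2 and cKO replicate 2. Atf4 and its target Asns had r = 0.51 (exact permutation p = 0.2001) and rho = 0.43 (exact permutation p = 0.299), and r = 0.28 without cKO replicates 1 and 4.

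Genes of the same pathways outside the member list did not pass either. Of 166 such genes, 157 were tested and 0 were called (0.00869% of all genes were). Of those tested, 101 (64.3%) had a lower and 56 a higher mean in cKO, where 52.6% of all genes were lower. Their median log2 difference was -0.02. At an unadjusted limma p under 0.05, 1 was lower (0.637%, against 3.03% of all genes) and 1 higher (against 2.37% of all genes). Further folding genes had a lower mean in 25 of 32 (median -0.04), with Sdf2, a relative of Sdf2l1, at 69.0 ± 1.98 in WT and 62.7 ± 5.45 in cKO, the prolyl isomerase Fkbp11 at 31.2 ± 5.06 and 27.6 ± 1.36 and Cnpy2 at 116 ± 4.31 and 109.997 ± 4.61. Translocation and glycosylation genes had a lower mean in 20 of 26 (median -0.03), with the oligosaccharyltransferase subunits Rpn2 at 209.9 ± 0.516 and 194 ± 12.5 and Ddost at 194 ± 6.88 and 182 ± 6.12, and the channel partner Sec62 at 31.2 ± 0.574 and 29.1 ± 1.67. Further degradation genes had a lower mean in 12 of 22 (median -0.03), with the ER ubiquitin-conjugating enzyme Ube2j1 at 43.1 ± 3.24 and 39.9 ± 2.56 and the ligases Rnf185 at 14.9 ± 1.35 and 16.1 ± 1.42 and Rnf5 at 30.6 ± 3.43 and 28.5 ± 2.04. Genes of export from the ER had a lower mean in 18 of 26 (median -0.01), with Preb, which loads the coat GTPase, at 12.0 ± 0.405 and 11.1 ± 0.171, Ctage5 at 18.4 ± 1.17 and 16.7 ± 0.436 and the vesicle fusion protein Bet1 at 21.2 ± 1.47 and 23.3 ± 2.57. Amino acid response genes, many of them ATF4 targets, had a lower mean in 9 of 23 (median 0.03), with the transporter Slc1a5 at 165 ± 7.73 and 155 ± 5.80, the proline enzyme Aldh18a1 at 27.5 ± 0.866 and 29.2 ± 2.63 and the serine enzyme Psat1 at 6.32 ± 1.16 and 5.42 ± 1.71.

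Stress signalling genes outside the members held both of those genes, and 17 of 28 had a lower mean in cKO (median -0.04). Atf3, a stress transcription factor downstream of ATF4 that dissociation also raises, was abundant, with 1251, 1191, 1176 and 1079.6 in WT and 1013, 1023, 1106 and 1078 in cKO. Its difference was -0.15 (SE 0.06, limma unadjusted p = 0.0262, adjusted p = 0.897), and the groups overlapped at WT replicate 4. Tmbim6, an ER membrane protein that restrains IRE1, was 123, 118, 124 and 123 in WT and 131, 131, 133 and 127 in cKO, with no overlap and a difference of 0.10 (SE 0.04, unadjusted p = 0.0407, adjusted p = 0.897). Of the 157 tested pathway genes outside the member list, 1 had no overlap in the higher direction (against 1.36% of all genes). In the lower direction 2 had none (1.27%, against 1.90% of all genes). Creb3l1, a membrane-bound factor of collagen-secreting cells, was at 20.8 ± 3.25 in WT and 24.2 ± 2.08 in cKO (difference 0.22, adjusted p = 0.897).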

How the data were processed

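The authors deposited 1 table of FPKM values per library. Per the submitters' processing notes, the tools were Cufflinks 2.2.1 with Cuffdiff, Bowtie2 2.3.5.1 under TopHat2 2.1.1, and SAMtools 0.1.18, on build mm10. Per the labels' protocols, full-length cDNA was made with SMART-Seq. The gene annotation and any scaling by Cuffdiff were not given in the sources used here. Scaling each library by its median gene ratio left 52.7% of all genes lower in cKO, against 52.6% as deposited. FPKM values are relative within a library, so that abundant genes can lower the others.

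Here values were taken as log2(FPKM + 1), which understates changes of low genes. Genes whose FPKM averaged 1 or more over the 8 libraries (11506) entered limma 3.58.1, run under R 4.3.3. The settings were eBayes with trend, cKO against WT, Benjamini-Hochberg over all genes and a threshold of 0.05. The procedure was tested on simulated data with shifts larger than any difference of the members. That test therefore does not show whether changes of the members' size would be called. The rest used pandas 2.3.3, matplotlib 3.10.9, scipy 1.17.1 and numpy 2.4.6 with Python 3.11.15. With 4 against 4 libraries the smallest two-sided exact p is 0.0286. Fragments were given where all 8 values, scaled by relative depth, were whole within 0.01 (at most 400 fragments). They cover counting error only, and other members' counts were not analysed here. Groups and replicate numbers are those of the titles. The design text gives 4 mice per genotype, so that each library was counted as 1 mouse.

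All members were accounted for. Values per library were given for Hspa5, Hsp90b1, Xbp1, Atf4, Ddit3, Derl3, those with an unadjusted p under 0.05 or without overlap, and others that stood out after their values were seen. Of other pathway lists, up to 3 genes with the smallest p were named. The members and lists were chosen with earlier results of these data known. Positions are from GENCODE vM21 (GRCm38). Alternatives were other pseudocounts, filters, scalings and eBayes options, array weights, the replicate number as a block, an epithelial covariate and leaving out libraries.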

Additional observations from a re-analysis of the deposited data

Results flagged for a closer look

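In 78 groups of 4 libraries (39 genes, Vimp included, in WT and cKO), 4 held a library whose gap to the nearest other exceeded Dixon's critical value of 0.829 of the range, and chance gives about 1 in 20. Hyou1 was 19.6 in cKO replicate 1, against 15.1 to 15.8 in the other cKO libraries. Eif2ak3 was 12.4 in cKO replicate 1, against at least 13.7 in the other cKO libraries. Calr was 285.1 in WT replicate 3, against 281.2 to 281.3 in the other WT libraries, a gap that is large only beside their narrow range. Ern1 was 3.13 in WT replicate 3, against 3.57 to 3.62.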

How the results depend on the processing

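No member was called in limma under any of 21 alternatives, of which leaving out both cKO replicates 1 and 2 was added after seeing the data. Hspa5 kept its lower direction in all 21 (log2 difference -0.22 to -0.10, adjusted p of 0.643 to 1.00), as did Herpud1 (-0.22 to -0.13) and Xbp1 (-0.14 to -0.07). They had an unadjusted p under 0.05 in 19, 17 and 12 of the 21. Hsp90b1 turned to 0.0317 with quantile normalization and 0.0183 with rescaling to a fixed sum, and ran from -0.0288 to 0.00631 with single libraries left out, turning without cKO replicate 4. Of the 36 tested members, 0 to 9 changed sign, most with cKO replicates 1 and 2 left out. The 3 members lower at an unadjusted p under 0.05 became 0 with quantile normalization and 1 with rescaling to a fixed sum, where 2.90% and 1.44% of all genes were lower at that p. Leaving out 1 library gave 1 (without WT replicate 2, against 2.00% of all genes) to 7 (without cKO replicate 1, against 4.14% of all genes). The 7 held Atf4, Asns, Ppp1r15b and Sec61b in addition. With no filter on low values, 1 member, Derl3, was higher at an unadjusted p under 0.05. The share of all genes higher at that p was 2.37% with the filter and was not counted without it. The count of members lower by mean was 23 to 31 without single libraries (50.3% to 53.4% of all genes) and 33 with the epithelial covariate (49.9% of all genes). Over all genes, 1 gene was called with all libraries, 1 to 4 without a single library (3 without WT replicate 3, 4 and 2 when cKO replicate 1 or 2 was left out) and 4 without cKO replicates 1 and 2. The replicate block gave 0 called members, 1 called gene and 2 members lower at an unadjusted p under 0.05 (against 2.79% of all genes). Deviations of same-numbered libraries correlated at 0.02 to 0.09, so the numbers were not taken as pairs. With 4 libraries a group, the 95% interval of Hspa5 reached from -0.32 to -0.05, and 0.0286 is the smallest exact p for a gene below the filter.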

Other observations

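Some stress genes outside the rule for named genes stood out by value and were chosen after their values were seen. Cebpb, a transcription factor that dimerizes with CHOP, had the highest difference of the tested stress signalling genes at 0.80, with a 95% interval from -0.28 to 1.89 (limma adjusted p = 0.901). Its FPKM was 44.1, 17.7, 90.7 and 98.4 in WT and 132.7, 73.0, 62.6 and 112 in cKO, a wide spread within either group. Ddit4, a stress-induced inhibitor of mTORC1, had the lowest difference at -0.28 (adjusted p = 0.897), with 4.39, 3.79, 3.87 and 3.57 in WT and 2.96, 3.74, 2.07 and 3.65 in cKO. Ern2, the IRE1 relative of secretory epithelium, was below the filter, with 0.216, 0.0903, 0.0384 and 0.382 in WT and 1.97, 0.114, 0.161 and 0.0387 in cKO. Its value in cKO replicate 1 stands in the library where goblet cell markers summed to 479 FPKM, and the part of those cells was not tested.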
